A study of Mus musculus with 4 samples.

Results

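GC-poor H3K9ac peaks are stretches of chromatin whose acetylation at lysine 9 of histone H3 was called different between 2 aorta macrophage libraries and whose sequence is low in G and C. They were taken from the rows held of the study's supplementary list of H3K9ac peaks paired with genes, which gives the bases of each peak. A peak was a member when G plus C made up under 53% of the unmasked bases held, and each peak was counted once. There were 233 such peaks among the 483 peaks held, against 250 with more G and C, called GC-rich here, and the deposited list of differential H3K9ac peaks holds 20943 in all. The GC threshold used neither direction nor width as a value. It was read, however, only over the bases held, which start at the lowest coordinate of the peak. These are a smaller part of a wide peak than of a narrow one, so membership is not independent of width. The supplementary list itself, however, was filled by the authors with equally many peaks for each exposure, those with the most reads, so both the balance of directions and the widths among the peaks held bear that selection. The peaks held had a median width of 1050 bp, against 450 bp in the whole deposited list. Only part of the supplementary list was held, and the members lay on 5 chromosomes, so they do not sample the whole genome.

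The macrophages came from aortas of C57BL/6J mice exposed for 20 weeks to chronic intermittent hypoxia (CIH), in which 6.1% and 21% oxygen alternated every 90 seconds during the light phase, or to room air (RA), in which oxygen stayed at 21%. Chromatin was immunoprecipitated for H3K9ac or for H3K27me3, and each mark was sequenced once in CIH and once in RA, which gives 4 libraries with no input library. Since each mark was sequenced once in each exposure, replicate error is unknown, no p-value is given and every difference is one between 2 libraries, not between the exposures. Intervals are exact Clopper-Pearson 95% intervals for shares, and cover counting error only. The deposited lists give the position and the direction of each peak and the same score for every peak, so that neither the size of a change nor the depth behind it is known from them. The study reports a larger sequencing yield for H3K9ac in CIH than in RA. The part of yield in the directions and widths given here was not tested. Of the marker genes looked up, 1 of 12 macrophage genes (Mertk) and 0 of 8 smooth muscle or endothelial genes were paired with a peak held, and a list of differential peaks shows no level of a mark, so the cell type could not be checked.

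H3K9ac is deposited by histone acetyltransferases and lies over active promoters and enhancers, where it opens chromatin and is read by bromodomain and YEATS domain proteins. Most mouse promoters of widely used genes are CpG islands, rich in G, C and unmethylated CpG, while enhancers and the promoters of many tissue-specific genes are poorer in both. In macrophages, acetylated enhancers are typically bound by PU.1 together with C/EBP and AP-1 factors.

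The sequences show how far the peaks reach into AT-rich DNA. All are on the plus strand of mm9, 5′ to 3′, from the left end of the peak (its lowest coordinate), and capitals mark CG dinucleotides. The member of lowest GC content higher in CIH was paired with 4931440P22Rik and Tiparp, an ADP-ribosyltransferase gene, and the one higher in RA with Prkacb, a catalytic subunit of protein kinase A, and Ttll7, a tubulin polyglutamylase. Both peaks were 2700 bp wide, and the held bases had 31.6% GC at Tiparp and 33.8% GC at Prkacb.
Tiparp, higher in CIH, chr3:65331151-65331350: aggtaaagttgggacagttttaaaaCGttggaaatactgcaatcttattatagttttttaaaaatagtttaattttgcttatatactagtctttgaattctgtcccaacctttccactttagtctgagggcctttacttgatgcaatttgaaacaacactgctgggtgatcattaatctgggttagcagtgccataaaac
Prkacb, higher in RA, chr3:146474001-146474200: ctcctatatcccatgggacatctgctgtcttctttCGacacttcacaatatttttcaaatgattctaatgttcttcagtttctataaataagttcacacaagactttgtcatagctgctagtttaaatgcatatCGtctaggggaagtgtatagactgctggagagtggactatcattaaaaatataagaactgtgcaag
The 200 bases printed hold 1 CG in the Tiparp peak and 2 in the Prkacb peak.

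Low GC content over the held bases did not mean low GC content throughout every member. The peak paired with Decr1, a fatty acid oxidation enzyme, and Nbn, a DNA double-strand break repair protein, was higher in CIH and held 30 CpG among 399 bases. Its left end and its last bases held are shown together because they differ in composition within 1 peak.
Nbn, higher in CIH, bases 1 to 120, chr4:15884801-15884920: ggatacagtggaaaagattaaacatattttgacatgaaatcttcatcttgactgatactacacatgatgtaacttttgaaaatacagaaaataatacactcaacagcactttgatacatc
Nbn, higher in CIH, bases 279 to 399, chr4:15885079-15885199: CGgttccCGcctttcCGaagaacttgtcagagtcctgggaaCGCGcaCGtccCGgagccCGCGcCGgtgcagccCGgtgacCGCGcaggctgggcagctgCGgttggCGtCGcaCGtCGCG
The stretch at the left end has 30.0% GC and 0 CG, and the stretch at bases 279 to 399 has 71.9% GC and 19 CG. For comparison, the peak at Mir129-2, a microRNA gene, was higher in RA and had no CpG among its held bases, and the peak at Hnrnpu, which encodes a nuclear RNA-binding scaffold protein, was higher in RA with 15.
Mir129-2, higher in RA, chr2:94017851-94018050: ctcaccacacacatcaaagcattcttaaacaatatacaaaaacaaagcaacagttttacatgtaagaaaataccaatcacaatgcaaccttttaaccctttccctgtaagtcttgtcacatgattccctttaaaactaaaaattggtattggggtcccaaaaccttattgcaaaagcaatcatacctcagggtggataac
Hnrnpu, higher in RA, chr1:180265951-180266150: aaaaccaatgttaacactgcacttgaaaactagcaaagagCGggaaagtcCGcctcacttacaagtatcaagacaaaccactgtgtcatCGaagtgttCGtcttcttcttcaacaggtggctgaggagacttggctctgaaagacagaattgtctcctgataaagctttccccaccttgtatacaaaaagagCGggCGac

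The threshold fell in a dense part of the range. Just inside it, at 52.9% GC, were Uhmk1, Arhgef2, Isg20l2 and Nfe2l2 among peaks higher in RA and Igsf8, Mmp24, Stx5a and Tprn among peaks higher in CIH. Just outside it were Blcap, on the threshold and higher in CIH, and Mylk2 and Pmepa1 at 53.1%, both higher in RA. Over all members the median was 45.6% GC with a range of 31.6 to 52.9%, and it was 45.5% in peaks higher in CIH and 45.8% in peaks higher in RA. The GC-rich peaks had a median of 61.9% GC. After the lowest peak of each direction, the lowest were Ankub1 (31.6%), Arl14 with Ppm1l (31.8%), Fam63a (32.2%) and Synpo2 with Sec24d (32.5%) among peaks higher in CIH, and Sis with Gm6634 (34.3%), Lmo2 (36.1%), Gda (36.6%) and Fam198b (36.6%) among peaks higher in RA.

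A near-even split of the peaks held is set by how the supplementary list was filled, and 236 of the 483 (48.9%) were higher in CIH, so the direction of the members is read against the GC-rich peaks. The GC-poor peaks split into 123 with more signal in CIH and 110 with more in RA, a share of 52.8% higher in CIH (46.2 to 59.3%), against 113 of 250 GC-rich peaks (45.2%, 38.9 to 51.6%). The share of peaks in the whole deposited list was 45.4% for CIH and 54.6% for RA. The interval of the members overlaps that of the GC-rich peaks, and the unselected list is not a like comparison. Split by GC content, 30 of 47 members under 40% GC were higher in CIH (63.8%, 48.5 to 77.3%), as were 24 of 58 at 40 to 45% (41.4%, 28.6 to 55.1%), 37 of 74 at 45 to 50% (50%, 38.1 to 61.9%) and 32 of 54 at 50 to 53% (59.3%, 45.03 to 72.4%). The shares did not follow the order of GC content, and the intervals of the classes overlap. By chromosome the share higher in CIH ran between 40 of 58 members on chromosome 4 (69.0%, 55.5 to 80.5%) and 22 of 62 on chromosome 2 (35.5%, 23.7 to 48.7%), with 32 of 66 on chromosome 3, 15 of 24 on chromosome 1 and 14 of 23 on chromosome 19. Without chromosome 4 the share of all members was 47.4%, and without chromosome 2 it was 59.1%. The shares of GC-rich peaks by chromosome were not computed, so these values have no comparison beside them.

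Direction went with width. Members higher in CIH had a median width of 1550 bp (300 to 4150 bp) and those higher in RA one of 900 bp (450 to 2700 bp), and together they covered 196 kb in CIH and 104 kb in RA. The GC-rich peaks had medians of 1250 bp when higher in CIH and 800 bp when higher in RA, and the whole list 600 bp for CIH against 300 bp for RA. Of the 31 members no wider than 700 bp, 3 had more signal in CIH (9.68%, 2.04 to 25.8%), as were 13 of 58 over 700 and up to 1000 bp (22.4%), 39 of 70 over 1000 and up to 1500 bp (55.7%) and 68 of 74 over 1500 bp (91.9%, 83.2 to 97.0%). The same classes of GC-rich peaks gave 12.9%, 32.4%, 63.0% and 90.9%, and in each class the interval overlaps that of the members. The whole list, not selected by reads, had 35.6%, 69.3%, 81.3% and 91.6% in these classes. Among peaks higher in CIH, the median width was 1725, 1500, 1550 and 1400 bp in the 4 GC classes from low to high, and among peaks higher in RA the medians of the 4 classes were 900, 1000, 900 and 825 bp.

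**Figure D1:**
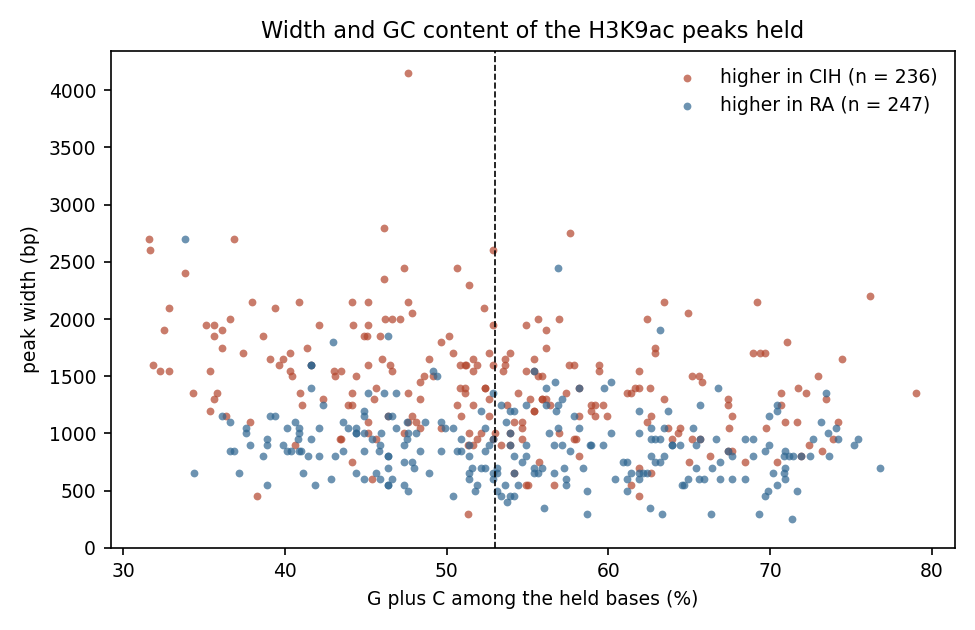
Width of each of the 483 H3K9ac peaks held (bp) against the G plus C content of its held bases (%). Each point is 1 peak, coloured by the library in which it was higher, and the dashed line marks the 53% threshold. Above 1500 bp, 68 of the 74 members left of the line were higher in CIH.

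The widest member was the 4150 bp peak at Klf9, a zinc finger transcription factor gene, at chr19:23214301-23218450 and higher in CIH. It was followed by peaks at Foxo1 (2800 bp), Tiparp and Cdkn2c with Faf1 (2700 bp each), all higher in CIH, and at Prkacb (2700 bp), higher in RA. The narrowest were Patl1 (300 bp) and Prdx1 with Mmachc (450 bp), higher in CIH, and Chmp4b with Raly (450 bp), Snap23 with Zfp106 (500 bp) and Slc44a3 (500 bp), higher in RA. Prdx1 encodes a peroxide-reducing enzyme, and its peak, at chr4:116367601-116368050, had no CpG among the unmasked bases held.

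Composition changed along the peaks. The bases held are the left end of each peak and covered a median of 25.7% of the width in members higher in CIH and 44.3% in members higher in RA, and in 232 of 233 members the peak went on beyond them. In members higher in CIH the pooled GC content was 42.7% over bases 1 to 50 and 49.0% over bases 351 to 400, with 15.2 and 28.7 CpG per kb. In members higher in RA it was 44.2% and 47.1%, with 18.6 and 25.8 CpG per kb. GC-rich peaks higher in CIH changed in the same direction, with 58.6% and 65.0%, and GC-rich peaks higher in RA had 61.8% and 61.3%. A peak classed as GC-poor is thus one with a GC-poor left end. Over the held bases the members had a median of 7 CpG, against 27 in GC-rich peaks, and an observed over expected CpG of 0.352 against 0.758, where 1 is the number that the C and G content alone would give. A ratio of at least 0.6, a usual mark of CpG islands, was met by 42 of 233 members (18.0%) and 176 of 250 GC-rich peaks (70.4%). These measures share base composition with the rule and are given as a description. Bases masked as N were present in 49 members, 34 higher in CIH and 15 higher in RA.

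**Figure D2:**
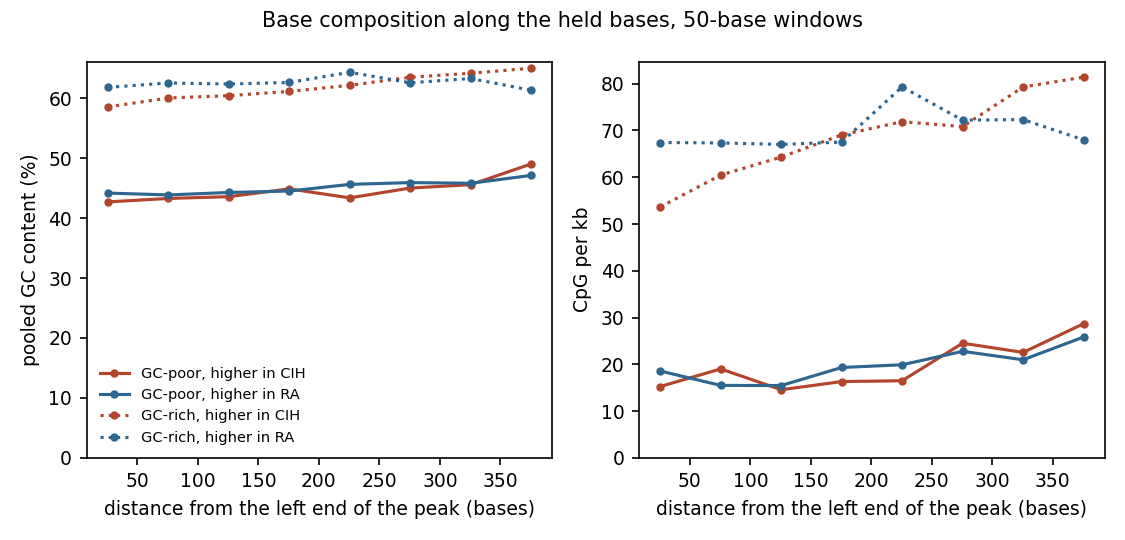
Pooled GC content (%) and CpG per kb in consecutive windows of 50 bases along the held bases, by distance from the left end of the peak. Solid lines are GC-poor and dotted lines GC-rich peaks, coloured by the library in which the peaks were higher. Both GC-poor lines end higher than they start, at 49.0% in CIH and 47.1% in RA over the last window.

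Most members had another differential peak nearby. Of the 233, 83 (35.6%) touched another peak of the list with no base between them, against 110 of 250 GC-rich peaks (44.0%) and 36.2% of the list, and 135 (57.9%, 51.3 to 64.4%) had another peak within 10 kb, against 63.2% and 49.7%. The directions differed in this. A neighbour touched 30 of 123 members higher in CIH (24.4%, 17.1 to 33.0%) and 53 of 110 members higher in RA (48.2%, 38.6 to 57.9%), 2 intervals that do not overlap. The GC-rich peaks ran the same way, with 38.1% for CIH and 48.9% for RA, 2 intervals that overlap, while the whole list, not selected by reads, had 40.8% for CIH and 32.3% for RA. The order is thus not particular to GC-poor peaks. The median distance to the nearest other peak was 14950 bp for members higher in CIH and 150 bp for those higher in RA, against 850 bp and 200 bp for GC-rich peaks. A touching neighbour was of the opposite direction in all 83 cases, which holds for each touching pair of the list and says nothing of the members. The member higher in CIH was the wider of the pair in 30 of 30 cases, with medians of 1325 bp for the member and 325 bp for the neighbour. The member higher in RA was the narrower in 15 of 55 cases, with medians of 850 bp and 500 bp. GC-rich peaks ran the same way, being the narrower in 0 of 45 cases for CIH and 20 of 76 for RA. The peaks held were selected by reads, while their neighbours came from the whole list, so these widths are not particular to GC-poor peaks. Without the peaks that touch another, 62.0% of the remaining 150 members were higher in CIH (53.7 to 69.8%), an alternative added after the data were seen. The members left out were 30 higher in CIH and 53 higher in RA, which by itself raises the share. Of all 290 peaks held with no touching neighbour, members included, 163 were higher in CIH. The members farthest from any other peak were Armc1 (258600 bp), Sclt1 (198750 bp) and Epb4.1l1 with Aar2 (172850 bp), higher in RA, and Psmb2 (189500 bp) and Arl8a (164750 bp), higher in CIH.

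The side of the neighbour was uneven. Members had 58 of their 85 touching neighbours on the right, past the end whose bases are not held (68.2%, 57.2 to 77.9%), whereas GC-rich peaks had 41 of 121 there (33.9%, 25.5 to 43.1%). It was so in both directions, with 22 of 30 for members higher in CIH and 36 of 55 for those higher in RA, against 12 of 45 and 29 of 76 for GC-rich peaks. In the list as a whole the 2 sides are equal by construction, since each touching pair has a left and a right peak. Taken by side, the 86 peaks held with a neighbour on the right only had a median of 47.4% GC and 56 of them were members. The 94 with a neighbour on the left only had a median of 61.9% GC and 25 members, and the 290 with none had 52.9% GC and 150 members. The bases held, which the rule read, were the left end in every peak. That end faces away from a neighbour on the right and towards a neighbour on the left. The side of the neighbour is thus not independent of the rule, and these shares are given as a description. The GC content of the right ends was not analysed here. The comparison of sides was added after the data were seen.

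**Figure D3:**
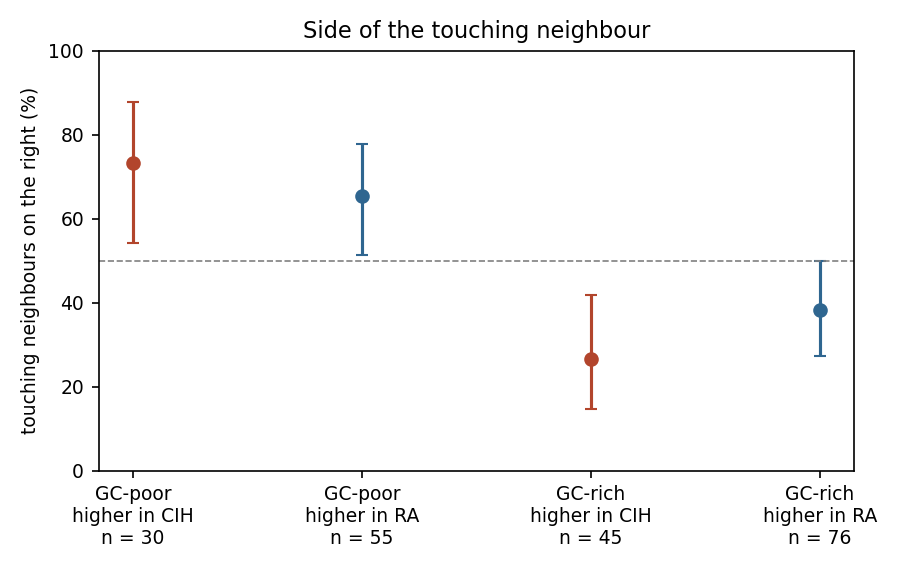
Share of touching neighbours that lay on the right of the peak (%), with exact 95% intervals as bars, for GC-poor and GC-rich peaks higher in CIH or in RA. The dashed line marks 50%, the share in the whole list. The GC-poor points lie at 73.3% and 65.5%, and the GC-rich points at 26.7% and 38.2%. The rule read the left end of each peak, so the side is not independent of it.

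The only 2 members that touched each other lay at Fam198b, a gene for a Golgi membrane protein. The left peak, chr3:79793301-79793900, was higher in CIH, and the right peak, chr3:79793901-79794450, was higher in RA. Their left ends are shown. The stretch of the peak higher in RA begins at the boundary between directions. The stretch of the peak higher in CIH lies at the other end of its peak, away from that boundary.
Fam198b, higher in CIH, chr3:79793301-79793450: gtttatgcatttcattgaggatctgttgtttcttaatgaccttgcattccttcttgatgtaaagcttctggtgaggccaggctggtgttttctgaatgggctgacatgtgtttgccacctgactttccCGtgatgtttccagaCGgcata
Fam198b, higher in RA, chr3:79793901-79794050: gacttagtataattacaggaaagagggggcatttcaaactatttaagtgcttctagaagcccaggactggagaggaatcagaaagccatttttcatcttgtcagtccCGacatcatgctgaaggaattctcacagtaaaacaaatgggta
The held bases had 45.4% GC in the peak higher in CIH and 38.9% GC in the peak higher in RA. At Uhmk1, a kinase gene, the peaks chr1:172104201-172105300, higher in CIH, and chr1:172105351-172106300, higher in RA, stood 50 bp apart.

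The 233 members were paired with 300 genes, 37 of them with 2 or more members and 40 also with a GC-rich peak. The direction of a member thus need not be that of its gene as a whole. At Id3 a GC-rich peak of 550 bp was higher in RA, against its member. At Hnrnpu a GC-rich peak of 1150 bp was higher in CIH, against its member. At Btg2 a GC-rich peak of 1500 bp was higher in CIH, as were its members. How often the directions differed or were the same was not counted. For 15 genes the members went both ways, namely 4931440P22Rik, Alg14, Ankub1, Cnn3, Fam198b, Foxo1, Gem, Gm27694, Iqgap3, Malat1, Mef2d, Pde4b, Ssr3, Tmem230 and Uhmk1. In 14 of the 15 the widest member was the one higher in CIH, with Fam198b the exception. Foxo1, a forkhead transcription factor of the insulin pathway, had 2800 bp at 46.1% GC higher in CIH (chr3:52001201-52004000) and 950 bp at 50.9% GC higher in RA (chr3:52071251-52072200). Pde4b, a cyclic AMP phosphodiesterase active in leukocytes, had 1900 bp at 36.1% GC higher in CIH and 850 bp at 43.6% GC higher in RA. Some of these genes share a peak, since a peak can be paired with several genes, so the 15 are not separate cases. Members higher in CIH were also wider over the whole set, with a median of 1550 bp against 900 bp in RA.

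Starts of genes were present in some members, so that the set is not made of distal or gene-body sites alone. A run of at least 30 bases identical to a RefSeq start window (250 bases before and 50 after a transcript start, GRCm38.p6, 32851 windows) was found in 34 of 233 members (14.6%, 10.3 to 19.8%), against 95 of 250 GC-rich peaks (38.0%, 32.0 to 44.3%). It was found in 19 of 123 members higher in CIH and 15 of 110 higher in RA. All 34 windows lay on the chromosome of their peak. Members with a window had a median GC content of 50.1% in CIH and 48.7% in RA, against 45.1% in members without one in both directions. For 24 members the window belonged to a paired gene, and the start itself was inside the held bases in 6, past them but inside the peak in 14, past the peak in 1 and before it in 3. A start further to the right than the held bases and their match would not be seen, so 34 is a minimum. The windows were matched in the same bases whose GC content chose the members. The shares of members and of GC-rich peaks with a window are thus a description, not independent of the rule. The starts of Stx5a, a Golgi SNARE, and Pef1, a calcium-binding adaptor of vesicle coats, lay in peaks higher in CIH, and those of Arhgef2, a guanine nucleotide exchange factor, and Rin2, a Rab5 activator, in peaks higher in RA. The capital marks the first base of the transcript, and all 4 genes run along the plus strand.
Stx5a, higher in CIH, chr19:8815864-8815924: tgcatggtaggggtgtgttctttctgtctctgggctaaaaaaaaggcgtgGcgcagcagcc
Pef1, higher in CIH, chr4:129784750-129784810: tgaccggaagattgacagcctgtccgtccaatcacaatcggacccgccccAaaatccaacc
Arhgef2, higher in RA, chr3:88420015-88420075: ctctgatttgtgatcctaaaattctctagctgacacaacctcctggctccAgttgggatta
Rin2, higher in RA, chr2:145611802-145611862: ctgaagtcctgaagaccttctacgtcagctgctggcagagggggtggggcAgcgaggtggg
The printed stretch at Arhgef2 has no CG and 44.3% GC, and those at Stx5a, Pef1 and Rin2 have 2, 4 and 2 CG.

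Short motifs were searched on both strands of the held bases, and a match is a description, not a bound site. Letters made of A and T were held by more members than GC-rich peaks, and letters with CG by fewer. The TATA box letters TATAAA were in 54 of 233 members (23.2%), 5 of 250 GC-rich peaks (2.00%) and 13.6% of all start windows, which at 300 bases are shorter than the held bases. TATTTATA, the core letters of MEF2 sites, was in 3.86%, 0.4% and 1.70%. GGGCGG, the GC box bound by SP factors, was in 13.7%, 56.8% and 35.7%, and CCAAT in 48.1%, 32.4% and 37.4%. These differences go with base composition, which the rule used. Among the letters of macrophage factors, TTGCNNAA of C/EBP was in 45 members (19.3%), 10.0% of GC-rich peaks and 10.8% of start windows. TGANTCA of AP-1 was in 25 members (10.7%), 9.20% and 7.81%. GAGGAAGT of PU.1 and other ETS factors was in 6 members (2.58%), 1.60% and 3.20%, the start windows being highest. These shares too are not independent of base composition, which the rule used. TGANTCA was in 17 of 123 members higher in CIH (13.8%, 8.26 to 21.2%) and 8 of 110 higher in RA (7.27%, 3.19 to 13.8%), which overlap. The HIF core ACGTG, which also covers 5 of the 6 letters of the E-box CACGTG, was in 27 of 123 members higher in CIH (22.0%) and 23 of 110 higher in RA (20.9%). CACGTG was in 9 members higher in CIH (7.32%, 3.40 to 13.4%) and 2 higher in RA (1.82%, 0.221 to 6.41%), which overlap. TGACNNNGC of the antioxidant response element was in 12 (9.76%) and 7 (6.36%), and TGACGTCA of CRE in 0 and 1. In GC-rich peaks these shares were higher, at 34.0% for ACGTG, 12.8% for CACGTG, 17.6% for TGACNNNGC and 2.80% for TGACGTCA.

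Stretches around these letters, in capitals, show members whose genes act in immunity, vessels, growth and redox control. Patl1 takes part in mRNA decay, Tlr4 is the receptor of bacterial lipopolysaccharide, Edn2 is a vasoconstrictor peptide, Btg2 restrains proliferation, and Nfe2l2 encodes NRF2, the activator of antioxidant genes. Hemgn, a haematopoietic nuclear protein, was chosen after its values were seen, for its 3 copies of CACGTG.
Patl1, AP-1, higher in CIH, chr19:11986457-11986493: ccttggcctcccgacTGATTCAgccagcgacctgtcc
Tlr4, AP-1, higher in RA, chr4:66489164-66489193: ttcatttaaggcgtcTGAGTCAtgatttag
Edn2, HIF core, higher in CIH, chr4:119820655-119820807: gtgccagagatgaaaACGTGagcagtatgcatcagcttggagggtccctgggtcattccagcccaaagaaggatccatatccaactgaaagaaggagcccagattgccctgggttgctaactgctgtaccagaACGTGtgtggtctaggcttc
Btg2, C/EBP, higher in CIH, chr1:135974618-135974712: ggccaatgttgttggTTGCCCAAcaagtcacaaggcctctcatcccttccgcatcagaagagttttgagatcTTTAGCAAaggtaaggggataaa
Nfe2l2, C/EBP, higher in RA, chr2:75521084-75521121: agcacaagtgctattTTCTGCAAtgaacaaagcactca
Hemgn, E-box, higher in CIH, chr4:46401944-46402090: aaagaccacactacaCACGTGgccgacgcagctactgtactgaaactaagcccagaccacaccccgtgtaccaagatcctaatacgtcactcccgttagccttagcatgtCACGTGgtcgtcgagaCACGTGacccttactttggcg

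**Figure D4:**
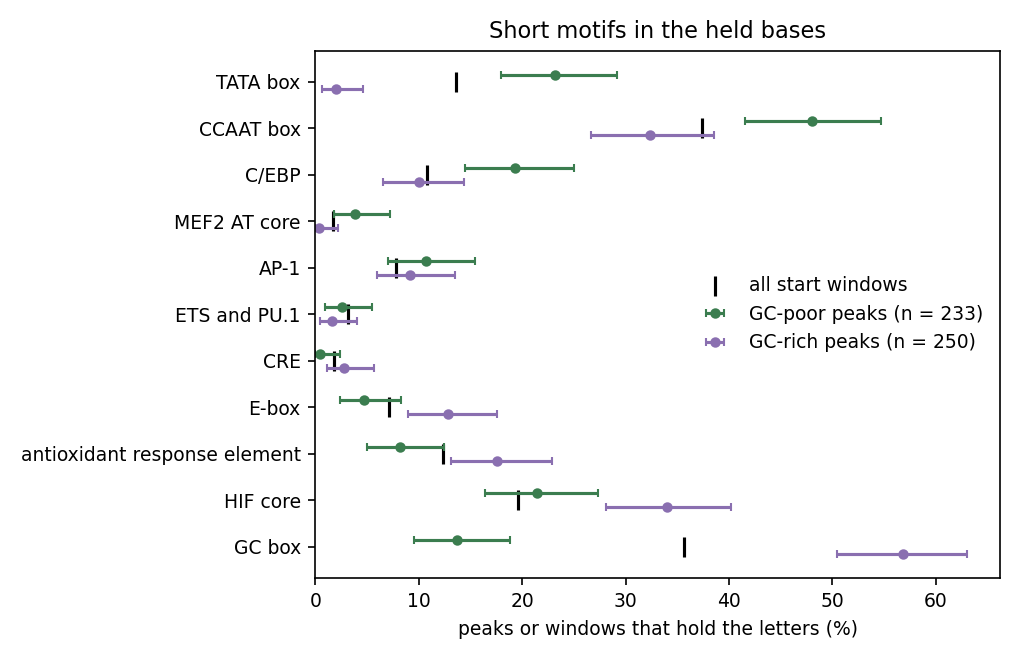
Share of GC-poor peaks, of GC-rich peaks and of all RefSeq start windows that hold each motif (%), with exact 95% intervals as bars for the peaks. The TATA box stands at 23.2% in GC-poor and 2.00% in GC-rich peaks, and the GC box at 13.7% and 56.8%.

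None of the 233 members shared a base with a differential H3K27me3 peak, the Polycomb mark of repressed genes (0%, up to 1.57%). The same was true of the 250 GC-rich peaks, and 35 of 20943 peaks of the list (0.167%) did, so that a count of 0 among the members is near the background.

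The paired genes were grouped into 9 roles by name, 132 genes in all, and the counts below are of members paired with them, beside the 52.8% higher in CIH over all members. The groups were not tested, and a peak paired with genes of several roles counts in each. Genes of transcription and chromatin had 27 members, 17 higher in CIH against 10 higher in RA. Those higher in CIH included Klf9 and Foxo1, Id3 (1250 bp, 44.1% GC), which blocks basic helix-loop-helix factors, Kdm4c (2150 bp, 44.1% GC), a demethylase of H3K9, Hat1 (1350 bp, 35.8% GC), a histone acetyltransferase, and Pcgf5 (1950 bp, 35.1% GC), a subunit of Polycomb complexes. Maml3, a Notch coactivator, and Notch2 itself were also higher in CIH, at 1600 bp and 950 bp wide. Those higher in RA were narrower, with a median of 825 bp against 1600 bp in CIH, and included Nfe2l2 (650 bp, 52.9% GC, chr2:75521051-75521700), Rxra with Col5a1 (800 bp, 51.4% GC), Hnf4a with Ttpal (550 bp, 41.8% GC), Lmo2 (1150 bp, 36.1% GC) and Cry2 (900 bp, 52.6% GC). RXRA is the shared partner of many nuclear receptors, HNF4A a nuclear receptor of liver and gut, LMO2 a haematopoietic cofactor and CRY2 a repressor of the circadian clock.

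Genes of the cell cycle, the p53 response and DNA repair had 13 members, 11 of them higher in CIH (84.6%) and 2 higher in RA. All 13 were at least 1000 bp wide, and wide members were mostly higher in CIH, but the part of width in this count was not tested. Btg2 had 2 members, both higher in CIH (1150 bp, 47.9% GC, and 1000 bp, 52.1% GC). The p53-induced gene Trp53inp1 (1550 bp, 43.5% GC), the nucleotide excision repair gene Ddb1 (1650 bp, 48.9% GC) and Nbn (1650 bp, 51.6% GC) were higher in CIH. Cdkn2c, an inhibitor of cyclin-dependent kinases, had 2 members higher in CIH (2700 bp, 36.8% GC, and 1950 bp, 44.2% GC), and Dclre1b, a telomere nuclease, also had 2. The 2 higher in RA were at Pcna with Tmem230 (1000 bp, 47.6% GC), the sliding clamp of DNA polymerases, and Fam72a (1050 bp, 37.6% GC). The Fam72a peak had no CpG among its held bases.

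Genes of innate immunity had 12 members, 6 higher in CIH against 6 higher in RA. The receptors Tlr2 (1050 bp, 49.9% GC, chr3:83645601-83646650), which senses bacterial lipoproteins, and Tlr4 (1100 bp, 47.5% GC, chr4:66488901-66490000) were higher in RA, each touching peaks higher in CIH. The start of Tlr2 lay to the left of its peak. The kinases Jak1 (800 bp), which serves cytokine receptors, and Alpk1 with its partner Tifa (900 bp), which sense a bacterial sugar, were higher in RA, as was Serping1 with Ube2l6 (700 bp), the C1 inhibitor and an enzyme of ISG15 conjugation. Those higher in CIH were at Pde4b (1900 bp), Cnr2 with Pnrc2 (1950 bp), the cannabinoid receptor of immune cells, Pdpn with Prdm2 (1700 bp), Ppp1r15b with Pik3c2b (1350 bp), and 2 at Faf1 with Cdkn2c. Pde4b also had a member of 850 bp higher in RA. Several of these genes share their peak with a gene of another role.

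Genes of redox control and mitochondria had 16 members, 7 higher in CIH against 9 higher in RA. Members at thiol redox genes were higher in RA at Txndc12 (900 bp, 37.8% GC, and 1100 bp, 48.7% GC) and Tmx4 (800 bp, 38.6% GC), and higher in CIH at Prdx1. The cysteine desulfurase gene Nfs1 (850 bp, 40.9% GC) was higher in RA, as was Ndufaf5 (1800 bp, 43.0% GC), an assembly factor of complex I. Those higher in CIH were at Ckmt1 (1850 bp, 45.1% GC), the mitochondrial creatine kinase, Gpd2 (1700 bp, 52.6% GC), the glycerol phosphate dehydrogenase of the inner membrane, H6pd (1700 bp, 50.4% GC), Ndufs5 (1400 bp, 52.4% GC), Aldh18a1 (1050 bp, 48.4% GC) and Coa7 (1000 bp, 45.1% GC). H6PD makes NADPH in the endoplasmic reticulum, and NDUFS5 is a subunit of complex I.

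Genes of lipid metabolism had 10 members, 7 higher in CIH against 3 higher in RA. Those for CIH included Nceh1 (1600 bp, 51.1% GC, chr3:27052051-27053650), which hydrolyses cholesteryl esters in macrophages, Cyp7a1 with Sdcbp (1100 bp, 37.8% GC), which sets the pace of bile acid synthesis, and Acbd5 (1300 bp, 35.6% GC), a peroxisomal tether. Those higher in RA were Osbpl9 (700 bp, 46.4% GC), an oxysterol-binding protein, Pex10 (850 bp, 49.6% GC), a peroxisome biogenesis factor, and Rxra.

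Genes of vessel tone, matrix and cytoskeleton had 22 members, 14 higher in CIH against 8 higher in RA. Edn2 (1250 bp, 50.6% GC, chr4:119820601-119821850) and Ddah1 (2450 bp, 50.6% GC, chr3:145314351-145316800), which degrades an inhibitor of nitric oxide synthase, were higher in CIH. So were Ankrd1 (1550 bp, 35.3% GC), a muscle stress gene, Plod1 (2150 bp, 47.6% GC), which modifies collagen lysines, Mmp24 (1950 bp, 52.9% GC), a membrane metalloproteinase, Tmod1 (2300 bp, 51.4% GC), which caps actin filaments, and 2 members at Synpo2. Postn, a matrix protein of remodelling tissue, had 2 members higher in RA (850 bp, 40.1% GC, and 1050 bp, 44.4% GC). Ppp1r12b (900 bp, 45.9% GC), a subunit of myosin phosphatase, and the small GTPase gene Rhoc (1850 bp, 46.4% GC) and Arhgef2 (1350 bp, 52.9% GC) were also higher in RA. Many of these genes are best known from smooth muscle and fibroblasts, and a peak in the list does not show whether its gene is active in the cells profiled.

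Genes of secretory and endosomal traffic had 24 members, 14 higher in CIH against 10 higher in RA. Sec62 (1650 bp, 39.9% GC) of protein translocation, Cog6 (1750 bp, 41.4% GC) of the Golgi and Arl8a (2450 bp, 47.4% GC) of lysosome movement were higher in CIH. Sec16a (1000 bp, 44.4% GC) of endoplasmic reticulum exit sites, Surf4 (1200 bp, 44.9% GC), a cargo receptor, and Vps45 (1000 bp, 48.1% GC) of endosomal fusion were higher in RA. Snap23, a SNARE of secretion, had 2 members higher in RA (1150 bp, 39.4% GC, and 500 bp, 51.8% GC). The ESCRT genes differed, with 2 members at Chmp5 higher in CIH and 2 at Chmp4b higher in RA. Genes of RNA processing had 16 members, 10 higher in CIH against 6 higher in RA. Celf2 (2100 bp, 32.8% GC), a splicing regulator, Fubp1 (2400 bp, 33.8% GC), which binds single-stranded nucleic acid, and Ago1 (2150 bp, 37.9% GC), an Argonaute, were higher in CIH, and Mettl14 (850 bp, 44.9% GC) of the RNA methyltransferase complex, Srsf6 (850 bp, 52.4% GC) and Hnrnpu (650 bp, 44.4% GC) were higher in RA.

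Noncoding RNA genes had 9 members, 5 higher in CIH against 4 higher in RA. Malat1 and Neat1 are abundant nuclear RNAs that lie near each other on chromosome 19. A peak of 600 bp with 42.9% GC at Malat1, chr19:5802751-5803350, was higher in RA, and a peak of 2100 bp with 52.3% GC paired with both genes, chr19:5810401-5812500, was higher in CIH. A further peak at Neat1 with Frmd8os, chr19:5847101-5848150, was 1050 bp wide with 49.6% GC and higher in CIH. Dnm3os, the precursor of microRNAs, had 2 members higher in CIH (2100 bp, 39.4% GC, and 1300 bp, 42.4% GC). Mir129-2, Kif16bos (1550 bp, 49.1% GC) and Gas5 with Zbtb37 (1350 bp, 46.9% GC) were higher in RA.

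**Figure D5:**
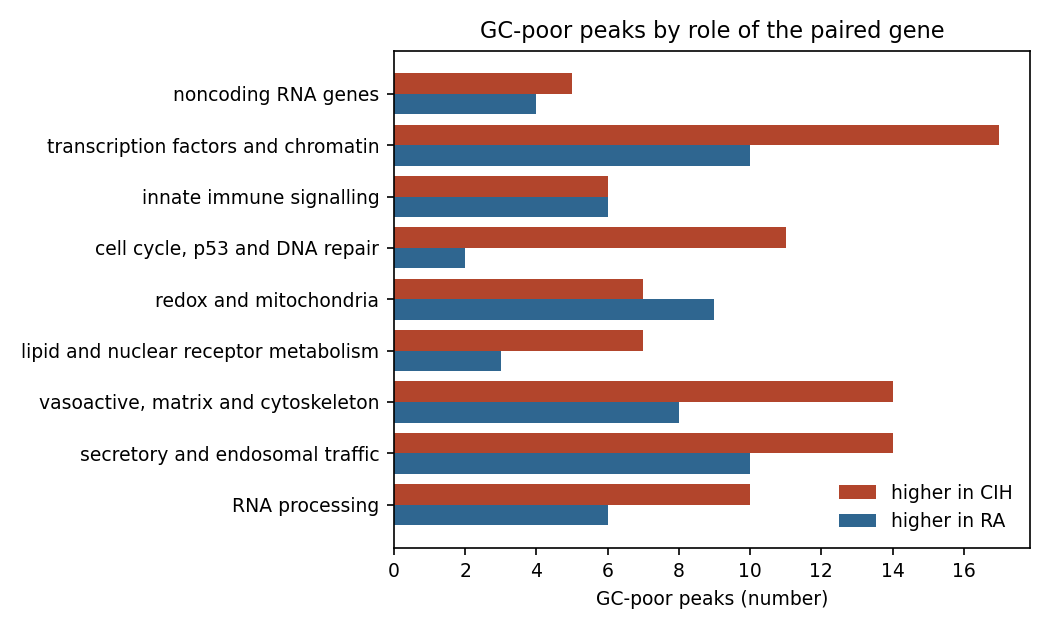
Number of GC-poor peaks paired with genes of each of the 9 roles, higher in CIH (upper bar of each pair) and higher in RA (lower bar). The pair farthest apart as a share is that of cell cycle, p53 and DNA repair, with 11 peaks for CIH against 2 for RA.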

How the data were processed

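Chromatin of aorta macrophages selected with CD11b was immunoprecipitated for H3K9ac or H3K27me3 and sequenced. The submitters' processing notes name MACS2 2.1.0, bedtools 2.23.0, Picard 1.121, SAMtools 1.2, BWA 0.7.12 and Trimmomatic 0.32, and the build mm9. For each mark the authors deposited a BED list of differential peaks, whose score is 1000 in every row and was not used. The sign of a peak was read as higher in CIH or RA from the enrichment label of the study's supplementary peak list, whose 483 peaks held (742 rows) match the deposited list in name and position. That list is held in part. That list holds, by the study's text, the peaks with the most reads for each exposure. Only its sequences, names, positions, enrichment labels and paired genes were used, not its counts or p-values, so the ratio of counts by GC is not reported here.

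Shares, medians, neighbours, motifs and start windows were computed with Python 3.11.15, numpy 2.4.6, pandas 2.3.3 and scipy 1.17.1, and first tested on simulated data. Start windows came from RefSeq (GRCm38.p6) and were matched by sequence, so no position was moved between builds. Low complexity bases are N in the sequences. Named peaks are those of the 9 role groups, the 5 of lowest GC in each direction, the 5 widest, narrowest and most isolated, those next to the threshold, members that touch each other and genes with members in both directions. Some genes of the role groups are counted but not reported here by name. The members, role groups and rules were chosen with earlier results of these data known. Alternatives were other GC thresholds, bases held, masked peaks, distances, run lengths and leaving out a chromosome.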

Additional observations from a re-analysis of the deposited data

How the results depend on the processing

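Of 37 alternatives, 32 gave values inside the interval of the reported value. The 5 others were the share higher in CIH without the peaks that touch another (62.0%), another peak within 5 kb (50.2%) or 20 kb (68.7%) in place of 10 kb (57.9%), which follows from the distance itself, and the GC content (44.4%) and observed over expected CpG (0.303) of the first 250 bases in place of 45.6% and 0.352, since both rise along the bases held. Leaving out a chromosome moved the share higher in CIH between 47.4% and 59.1%. The share of touching neighbours on the right stayed within its interval under each GC threshold, length of bases, masking and start window alternative run. All of these alternatives read the left end of the peaks, as the rule did. A stricter score could not be used because the score is constant. No paired analysis was possible because each mark was sequenced once per exposure and the result comes from no test. Widths, directions and neighbours describe 2 libraries, and since peaks that touch depend on each other, the intervals are narrower than they should be.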
